A study of Mus musculus with 12 samples.

Results

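The cornified envelope genes described here are the small proline-rich genes (Sprr), the late cornified envelope genes (Lce), loricrin (Lor), involucrin (Ivl) and the fused-type S100 genes Crnn, Flg2, Hrnr and Rptn. They were chosen by symbol, with the further condition of at least 10 counts in total over 12 libraries, which 40 of the 24062 counted genes met. The 40 are 14 Lce1, 6 Lce3 and 1 Lce6 gene, 2 Sprr1 and 9 Sprr2 genes, Sprr3, Sprr4, Lor, Ivl and the 4 fused-type genes. Sprr2a1 and Sprr2a2 also matched by symbol but are listed at 0 counts in all 12 libraries. Of the 50-base words in their annotated transcripts, 96.3% and 96.5% also occur in another gene. Reads with more than 1 alignment were not counted for any gene. They made up 17.2% to 23.4% per library of the sum of gene counts, no-feature, ambiguous and non-unique reads. The annotated positions of the 2 genes also overlap (92215799 to 92221911 and 92215920 to 92256724), and ambiguous reads were not counted for any gene either. The level of these 2 genes was therefore not readable here. The profilaggrin gene Flg was not analysed here.

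The tissue was wounded back skin of C57BL/6 mice with diabetes induced by streptozotocin, a toxin of the insulin-producing beta cells, which every group shared. RNA sequencing gave 1 library per mouse, with 3 mice under each of 4 labels: blank, DSCG, pre-MCS-01 and post-MCS-01. MCS-01 is a mast cell stabilizer known by its code name, and DSCG commonly stands for disodium cromoglycate, a long-used drug of the same kind. The mice labelled blank served as controls. The labels give no dose, day or age and do not define pre and post, so every label formed its own group. The libraries held 3.84e+06 (blank 3) to 5.05e+07 gene counts. Levels are given as CPM, counts scaled to library size with TMM factors (a normalization between libraries), or as CPM per kb of exon where genes are compared with each other. A difference was called where the edgeR quasi-likelihood test gave an adjusted p under 0.05 over the 16267 genes tested. Of the 40 genes, 39 passed the filter on low counts, and Sprr3, with 11 counts in all, did not.

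In the outer epidermis, dying keratinocytes replace their plasma membrane with the cornified envelope, a shell of proteins joined by transglutaminases. Involucrin forms an early scaffold, loricrin is its bulk component, small proline-rich proteins act as cross-bridges, and late envelope proteins are added last. The fused-type proteins join an S100 calcium-binding domain to long repeats and bind keratin filaments or the envelope. The genes sit side by side in the epidermal differentiation complex. Sprr1, Sprr2 and Lce3 genes are known for low levels in resting skin and induction in injured or inflamed epidermis, whereas Lor and Lce1 genes belong to normal epidermal differentiation.

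On GRCm38, the assembly that the build name mm10 refers to, all 40 genes lie on chromosome 3 between positions 92080271 and 93399442, a span of 1319 kb. Promoter sequence, here the 250 bases before the annotated start from the RefSeq table for GRCm38.p6, was given for 37 of the 40. The sequences of 7 genes are shown because these genes carry the main contrasts of the results: Sprr2d and Sprr2h from the block that stood high with MCS-01, Sprr1b from its edge, Lce3b from the second such block, Lor and Ivl as the classical components, and Crnn as the gene called. Capitals mark matches to TGANTCA, the recognition sequence of AP-1 factors, and to TATAAA, the TATA box, searched on both strands. They also mark TGACNNNGC, the core of the antioxidant response element, which none of these 7 holds. Each sequence reads 5′ to 3′ on the strand of the gene.
Sprr2d (chr3:92338890-92339139, plus strand): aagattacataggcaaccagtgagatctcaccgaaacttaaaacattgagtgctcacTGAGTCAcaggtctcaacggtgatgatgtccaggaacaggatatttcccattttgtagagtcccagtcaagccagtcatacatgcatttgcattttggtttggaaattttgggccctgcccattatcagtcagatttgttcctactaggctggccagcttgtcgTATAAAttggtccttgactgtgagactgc
Sprr2h (chr3:92385435-92385684, plus strand): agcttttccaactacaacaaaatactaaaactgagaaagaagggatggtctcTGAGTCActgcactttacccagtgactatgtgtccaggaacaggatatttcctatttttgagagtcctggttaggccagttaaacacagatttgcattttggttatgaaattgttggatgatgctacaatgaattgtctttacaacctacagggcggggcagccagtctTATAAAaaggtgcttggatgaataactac
Sprr1b (chr3:92438780-92439029, minus strand): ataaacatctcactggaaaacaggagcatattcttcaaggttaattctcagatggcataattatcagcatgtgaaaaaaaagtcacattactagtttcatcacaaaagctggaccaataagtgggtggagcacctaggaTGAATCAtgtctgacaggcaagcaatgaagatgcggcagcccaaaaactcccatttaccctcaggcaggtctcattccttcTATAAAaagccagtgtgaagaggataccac
Lce3b (chr3:92932729-92932978, plus strand): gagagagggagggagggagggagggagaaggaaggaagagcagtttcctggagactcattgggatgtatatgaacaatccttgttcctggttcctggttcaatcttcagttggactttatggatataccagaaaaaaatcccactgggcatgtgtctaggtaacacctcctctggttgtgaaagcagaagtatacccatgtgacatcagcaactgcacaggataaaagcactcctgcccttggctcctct
Lor (chr3:92083143-92083392, minus strand): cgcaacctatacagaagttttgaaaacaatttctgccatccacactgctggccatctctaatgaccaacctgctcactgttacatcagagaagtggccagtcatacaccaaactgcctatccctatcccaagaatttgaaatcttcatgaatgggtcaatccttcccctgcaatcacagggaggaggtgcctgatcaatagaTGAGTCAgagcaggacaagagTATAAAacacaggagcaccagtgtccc
Ivl (chr3:92573736-92573985, minus strand): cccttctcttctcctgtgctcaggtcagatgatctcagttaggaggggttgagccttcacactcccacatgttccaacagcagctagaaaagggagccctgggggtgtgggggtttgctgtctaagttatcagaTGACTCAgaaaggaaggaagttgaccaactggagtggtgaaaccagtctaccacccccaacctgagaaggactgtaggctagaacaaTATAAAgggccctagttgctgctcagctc
Crnn (chr3:93144539-93144788, plus strand): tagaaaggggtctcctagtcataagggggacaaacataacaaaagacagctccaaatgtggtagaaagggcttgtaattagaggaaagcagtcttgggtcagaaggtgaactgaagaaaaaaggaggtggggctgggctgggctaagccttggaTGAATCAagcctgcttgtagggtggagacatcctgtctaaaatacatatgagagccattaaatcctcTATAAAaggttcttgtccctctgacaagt

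All 7 Sprr2 promoters in the table held TGANTCA, at 198 to 193 bases before the start, and TATAAA at 29 bases before it. TGANTCA was also found in both Sprr1 promoters, in those of Lor and Ivl and in those of Crnn, Flg2 and Rptn, which makes 14 of 37. It was found in 0 of 13 Lce1 and 0 of 6 Lce3 promoters. The share among all 32851 promoters of the same length was 6.749%. TATAAA was found in 19 of 37 against 12.37% of all promoters, and TGACNNNGC in 7 of 37 against 10.16%. In Sprr1a a TGANTCA match overlaps a TGACNNNGC match. The Sprr2 promoters are 60.1% to 89.3% identical in pairs (median 65.8%, 21 pairs), so their matches are not independent of each other. These matches describe the letters in the window and nothing about binding.

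Loricrin was the most abundant of the 40 genes per length, with a mean level of 3150 CPM per kb over the 12 libraries. Sprr1a, a cross-bridging protein, followed at 1807 CPM per kb and Sprr2d at 999. Sprr4 came next at 452, but its annotated length of 231 bases is coding sequence alone, so its level per length is uncertain. Sprr1b (434), Sprr2b (351), Sprr2i (253) and Sprr2h (204 CPM per kb) completed the upper 8. The most abundant Lce1 gene was Lce1a2 with 177 CPM per kb, the most abundant Lce3 gene was Lce3b with 83.3, and Lce6a stood at 15.9. Among the fused-type genes the order over the 12 libraries was Rptn (92.3), Crnn (76.5), Hrnr (8.35) and Flg2 (3.50 CPM per kb). Hrnr and Flg2 transcripts hold long internal repeats, with 4559 distinct 50-base words over 11.187 kb of exon and 9055 over 20.803 kb. Crnn holds 1863 over 1.865 kb. Reads from repeats can have more than 1 alignment and then were not counted, so the levels of Hrnr and Flg2 per length are uncertain too. This order over all libraries did not hold in each group. In post-MCS-01 Sprr2d (1989 CPM per kb) stood above Lor (1564), and in blank Sprr2d (178) stood below Sprr4 (1042) and Lce1a2 (245). Crnn stood above Rptn in blank (66.9 against 61.5 CPM per kb) and in DSCG (143 against 76.9), and below Flg2 in post-MCS-01 (0.38 against 2.21). Neighbours in the order often differed by less than their spread: in the blank libraries Lor stood at 3719 ± 2898 and Sprr1a at 2210 ± 319 CPM per kb (SD, n = 3). Together the 40 genes took 1.13% ± 0.65 of gene counts in blank, 1.11% ± 0.13 in pre-MCS-01, 0.87% ± 0.51 in post-MCS-01 and 1.22% ± 0.60 in DSCG (SD, n = 3 each).

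The labelled tissue matched its markers. Keratins of the basal layer, Krt5 and Krt14, averaged 4996 to 11691 CPM over the 12 libraries. Krt4 and Krt13, keratins of internal squamous linings where Sprr3 and Crnn are also known to be expressed, summed to at most 2.44 CPM in any library. Sprr3 had at most 3 counts in a library.

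Sprr2, Lce3 and Sprr1b formed the clearest pattern. All 6 libraries labelled pre-MCS-01 or post-MCS-01 lay above all 3 blank libraries in 16 of the 39 genes tested, against 3.33% of all genes tested. The 16 were all 9 Sprr2 genes, all 6 Lce3 genes and Sprr1b. In chromosome order they made up 2 uninterrupted runs, Sprr2b to Sprr1b (10 genes, 92316620 to 92438789, 122 kb) and Lce3a to Lce3f (6 genes, 92925287 to 92993426, 68.1 kb). Only Sprr4 lay below blank in all 6, against 1.78% of all genes tested. None of these 17 differences passed the edgeR test, in which 0 of 39 genes, and 0% of all genes tested, were called for pre-MCS-01 or post-MCS-01 against blank. Taken by group, 16 of 39 genes lay above blank without overlap in pre-MCS-01 (8.41% of all genes tested) and 2 below it (5.96%). In post-MCS-01 16 lay above (8.92%) and 5 below (9.45%). At an unadjusted p under 0.05, edgeR gave 17 of the 39 genes (1178 of 16267 genes) for pre-MCS-01 and 19 (1521 genes) for post-MCS-01 against blank. An exact two-sided permutation test of 3 libraries against 3 cannot give a p below 0.1.

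The calls for post-MCS-01 against blank differed between settings. A fit of these 2 groups alone called 11 of the 39 genes (1.61% of all genes tested in it), of which 10 were higher (8 Sprr2 genes, Lce3a and Lce3b) and 1, Crnn, was lower. DESeq2 called 9 (1.93%), 6 higher and 3 lower, and edgeR without a filter on low counts called 1, Crnn (0.18%). Without DSCG 3, the library lowest in most of these genes, the edgeR fit called 9 (0.201%), namely 6 Sprr2 genes, Lce3a and Lce3b as higher and Crnn as lower. Without DSCG 1 it called 2 (1.34%), Sprr2b and Crnn. For pre-MCS-01 against blank the fit of the 2 groups alone called 1 gene, Sprr2b (0.0126%).

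**Figure D1:**
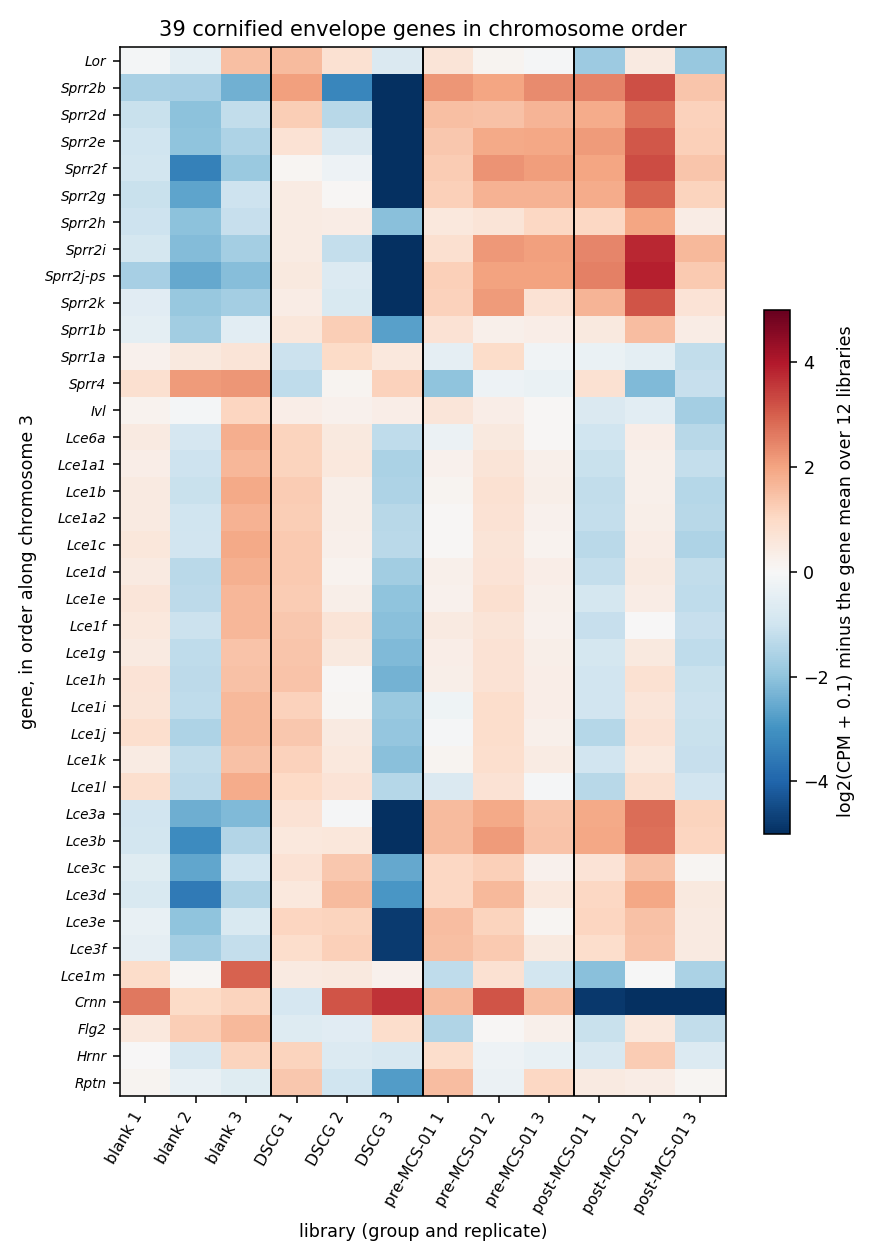
Levels of the 39 tested cornified envelope genes (rows, in order along chromosome 3) in the 12 libraries (columns, by group), as log2(CPM + 0.1) minus the mean of the gene, with colours limited to 5 log2 units either way. The rows from Sprr2b to Sprr1b and from Lce3a to Lce3f are red in all 6 MCS-01 libraries and blue in all 3 blank libraries, DSCG 3 is the lowest library in 14 of these 16 rows, and Crnn is dark blue in the 3 post-MCS-01 libraries.

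Sprr2d, the most abundant Sprr2 gene, stood at 148, 78.3 and 136 CPM in the blank libraries 1 to 3. It stood at 913, 890 and 1055 CPM in pre-MCS-01 and at 1153, 2201 and 708 CPM in post-MCS-01. The DSCG libraries were far apart, at 756, 124 and 5.36 CPM. The MCS-01 and blank libraries did not overlap, while DSCG overlapped both. The log2 fold change from blank was 2.98 ± 1.12 (SE) in pre-MCS-01 and 3.49 ± 1.15 in post-MCS-01, with edgeR adjusted p = 0.669 and 0.318.

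Sprr2h, the Sprr2 gene with the smallest p against blank and one with no 50-base word shared with another gene, varied less. Its level was 55.7, 27.3 and 50.3 CPM in blank and 164, 176 and 233 CPM in pre-MCS-01. In post-MCS-01 it was 229, 442 and 147 CPM, and in DSCG 149, 145 and 26.6 CPM. Here too DSCG 3 was the lowest of the 12 libraries, and DSCG 1 and 2 lay just above the lowest MCS-01 library or just below it. The log2 fold change was 2.10 ± 0.59 in pre-MCS-01 (adjusted p = 0.610) and 2.62 ± 0.60 in post-MCS-01 (edgeR adjusted p = 0.111).

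Sprr2i spanned the widest range of the Sprr2 genes with a count in every library, 3104-fold between the highest and the lowest library. It stood at 28.3, 11.8 and 16.0 CPM in blank, 92.1, 235 and 221 CPM in pre-MCS-01, and 290, 723 and 161 CPM in post-MCS-01. In DSCG it stood at 71.1, 22.8 and 0.23 CPM. The wide range thus rested on 11 counts in DSCG 3, and the next lowest library, blank 2, stood at 11.8 CPM. All 6 MCS-01 libraries were above all 6 others. Sprr2b, with 14.1% of its 50-base words shared with another gene, stood at 29.7, 28.9 and 17.3 CPM in blank and 426, 359 and 465 CPM in pre-MCS-01. In post-MCS-01 it stood at 506, 846 and 238 CPM, and in DSCG at 377, 9.43 and 0.78 CPM. A single DSCG library thus lay among the MCS-01 libraries and the other 2 lay below blank.

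The 9 Sprr2 genes shared their extreme libraries, with the highest level in post-MCS-01 2 and the lowest in DSCG 3 without exception. They did not move alike in every library. In DSCG 1 and 2, Sprr2b stood at 377 and 9.43 CPM and Sprr2h at 149 and 145 CPM. Summed over the 9 genes, Sprr2 stood at 167 to 316 CPM in blank, 1859 to 2383 in pre-MCS-01 and 1507 to 5203 in post-MCS-01, and at 1509, 384 and 33.9 CPM in DSCG. Against blank its median log2 fold change was 3.21 in pre-MCS-01 and 3.80 in post-MCS-01, beside 0.04 and -0.01 over all genes tested. The largest single difference was that of Sprr2j-ps in post-MCS-01, 5.05 ± 1.31 with edgeR adjusted p = 0.171. Sprr2j-ps carries a pseudogene suffix, although GENCODE lists it as protein coding, and Sprr2g is annotated as a polymorphic pseudogene. Sprr2j-ps stood at 1.33 to 2.55 CPM in blank and 19.2 to 123 CPM in the MCS-01 libraries, and Sprr2g at 4.18 to 13.1 and 57.6 to 203 CPM.

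The 6 Lce3 genes behaved alike against blank. Lce3b stood at 11.1, 2.27 and 7.60 CPM in blank, 63.3, 92.2 and 56.8 CPM in pre-MCS-01, and 80.3, 143 and 43.5 CPM in post-MCS-01. In DSCG it stood at 30.4, 30.7 and 0.13 CPM. Lce3a stood at 7.70, 2.68 and 3.14 CPM in blank against 32.8 to 104 CPM in the MCS-01 libraries and 25.0, 14.3 and 0.19 CPM in DSCG. For both, all 6 MCS-01 libraries lay above all 6 others. In the other 4 Lce3 genes, DSCG 1 and 2 lay among the MCS-01 libraries. The median log2 fold change of the 6 was 2.44 in pre-MCS-01 and 2.45 in post-MCS-01 against blank. Between 12.1% and 49.3% of the 50-base words of an Lce3 transcript occur in another gene, so part of their reads could not be assigned to 1 gene.

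Of the pair of Sprr1 genes, Sprr1b shared the pattern of the Sprr2 block and Sprr1a did not. Sprr1b stood at 201, 83.5 and 195 CPM in blank, 461, 334 and 352 CPM in pre-MCS-01, and 395, 818 and 368 CPM in post-MCS-01. The DSCG libraries stood at 420, 653 and 43.1 CPM. Its log2 fold change from blank was 1.26 ± 0.71 in pre-MCS-01 and 1.73 ± 0.72 in post-MCS-01 (edgeR adjusted p = 0.720 and 0.470). Sprr1a stood at 1516, 1800 and 2029 CPM in blank and at 950, 2473 and 1149 CPM in pre-MCS-01. In post-MCS-01 it stood at 1047, 919 and 550 CPM, below all blank libraries, and in DSCG at 615, 2549 and 1879 CPM. Its log2 fold change in post-MCS-01 against blank was -1.09 ± 0.50 (adjusted p = 0.538). The ratio of Sprr1b to Sprr1a counts was 0.0464 to 0.132 in blank, 0.135 to 0.485 in pre-MCS-01, 0.378 to 0.890 in post-MCS-01 and 0.0229 to 0.682 in DSCG.

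**Figure D2:**
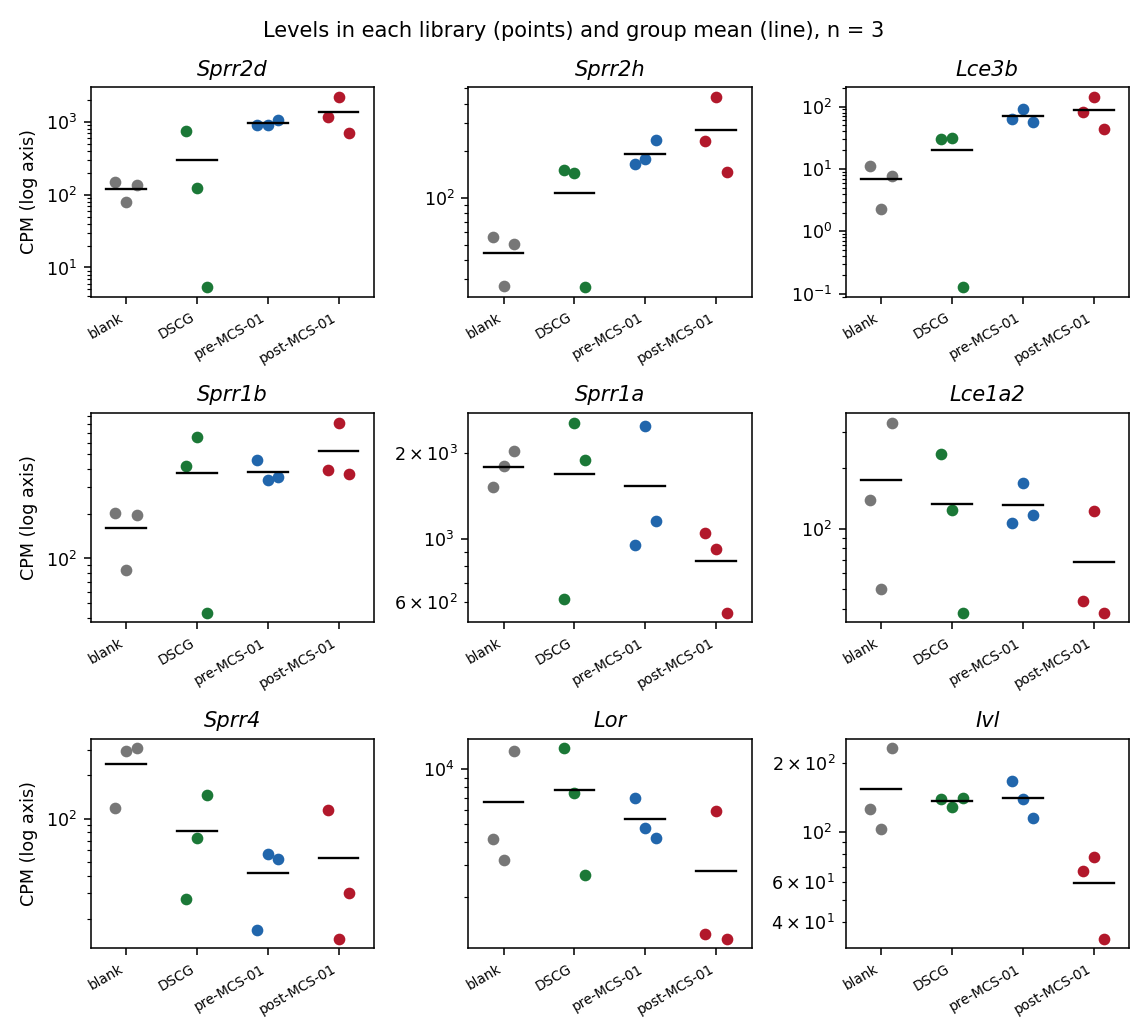
Levels of 9 genes in CPM (log axes, scaled per gene) in each library of the 4 groups, with points for libraries and a line for the group mean (n = 3). In Sprr2d, Sprr2h, Lce3b and Sprr1b the 6 MCS-01 points lie above the 3 blank points and the lowest point is a DSCG library, whereas Sprr4 lies below blank and Ivl is lowest in post-MCS-01.

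Several measures moved with the Sprr2 and Lce3 levels. A list of neutrophil genes, 5 of 6 counted, summed to 579 to 980 CPM in blank, 4096 to 6493 in pre-MCS-01 and 4527 to 10224 in post-MCS-01, and to 3745, 892 and 43.9 CPM in DSCG 1, 2 and 3. Most of that sum was S100a8 and S100a9, which injured keratinocytes also express. The receptors Csf3r and Cxcr2 stood at 5.59 to 34.3 CPM in blank and 13.8 to 117 CPM in the MCS-01 libraries, with overlap, and at 3.41 to 38.6 CPM in DSCG. None of the 5 genes was called in any comparison. The wound-activated keratins Krt6b and Krt16 were also lowest in DSCG 3, at 122 and 319 CPM, against 466 to 6273 and 1202 to 9190 CPM elsewhere. Krt6a was lowest there too, at 926 CPM. In each of these keratins all 6 MCS-01 libraries lay above all 3 blank libraries, as in 3.33% of all genes tested. Krt6b stood at 466 to 1455 CPM in blank and 2363 to 6273 CPM with MCS-01. Krt16 stood at 1202 to 3923 and 4525 to 9190 CPM, and Krt6a at 1465 to 1690 and 1967 to 4458 CPM. Krt17, the remaining gene of that list, shared neither feature and stood at 5098 CPM in DSCG 3. Its lowest level was 2440 CPM in DSCG 1, and its blank libraries (4929 to 7301 CPM) overlapped the MCS-01 libraries (4205 to 8486 CPM). Adipocyte genes split the other way. Adipoq, Plin1, Cidec and Lep, 4 of the 5 on that list, were lower in all 6 MCS-01 libraries than in all 3 blank libraries, with Cidec at 8.15 to 39.1 CPM against 75.4 to 122 CPM. Of all genes tested, 1.78% were lower in this way. Fabp4, the other gene on that list, overlapped, at 62.4 to 389 CPM against 237 to 463 CPM in blank. The list medians of the log2 fold change from blank were -1.89 in pre-MCS-01 and -1.40 in post-MCS-01, with no call, and its summed level overlapped (91.3 to 461 CPM in the MCS-01 libraries, 386 to 701 CPM in blank, 347 to 676 CPM in DSCG). The part of these cells or of the wound response in the Sprr2 and Lce3 levels was not tested. In bulk tissue, more cells of a type and more RNA per cell cannot be told apart. Against the mean of Krt5 and Krt14 in the same library, the mean log2 difference of Sprr2 from blank was 2.96 in pre-MCS-01 and 3.60 in post-MCS-01, where the values without that reference were 3.28 and 3.76. For Lce3 it was 2.44 and 2.67, where the values without it were 2.76 and 2.83. Krt5 and Krt14 are 2 of the 7 genes on a basal keratinocyte list, whose genes did not all move alike. In pre-MCS-01 against blank 3 were higher and 4 lower (median log2 fold change -0.22). In post-MCS-01 4 were higher and 3 lower (median 0.13), with no call.

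Blank 3, pre-MCS-01 2 and DSCG 2 stood apart in that their long transcripts were under-represented. The rank correlation of a gene's deviation with its exon length was -0.32, -0.38 and -0.33 in them and -0.06 to 0.34 in the other 9 libraries (16105 genes, across genes and with no test). Most Sprr and Lce transcripts are short. Without those 3 libraries the same 16 genes lay above blank in all MCS-01 libraries, against 10.5% of all genes tested. The median log2 fold change of Lce3 in post-MCS-01 was then 2.52. The Lce1 median against blank changed more. It turned from -0.34 to 0.31 in pre-MCS-01 and from -0.38 to 0.53 in DSCG, and moved from -1.18 to -0.34 in post-MCS-01.

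The make-up of the 40 genes differed between the groups. Sprr2 took 2.60% ± 1.23 of the counts of the 40 genes in blank, 18.6% ± 4.53 in pre-MCS-01, 36.2% ± 3.63 in post-MCS-01 and 3.90% ± 3.87 in DSCG (SD, n = 3 each). The ranges were 1.37% to 3.84% in blank, 14.8% to 23.6% in pre-MCS-01 and 33.5% to 40.3% in post-MCS-01, with no overlap among these 3 groups, while DSCG reached from 0.584% to 8.15%. Lce3 took 0.40% ± 0.29, 2.11% ± 0.42, 3.42% ± 0.46 and 0.87% ± 0.74 in the same order. Loricrin took 55.3% ± 9.91, 45.6% ± 8.47, 28.3% ± 10.5 and 57.8% ± 12.6. Its range in post-MCS-01, 19.0% to 39.6%, lay below those of the other 3 groups, which overlapped with each other. The margin to pre-MCS-01 was narrow, with 39.64% in post-MCS-01 2 and 39.76% in pre-MCS-01 2. Counts of Sprr2 relative to Sprr1 stood at 0.0886 to 0.184 in blank, 0.743 to 1.59 in pre-MCS-01 and 1.64 to 3.00 in post-MCS-01. In DSCG 1, 2 and 3 this ratio was 1.46, 0.120 and 0.0176. A share within the group depends on every other member, so these values describe its make-up and not the level of any 1 gene.

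**Figure D3:**
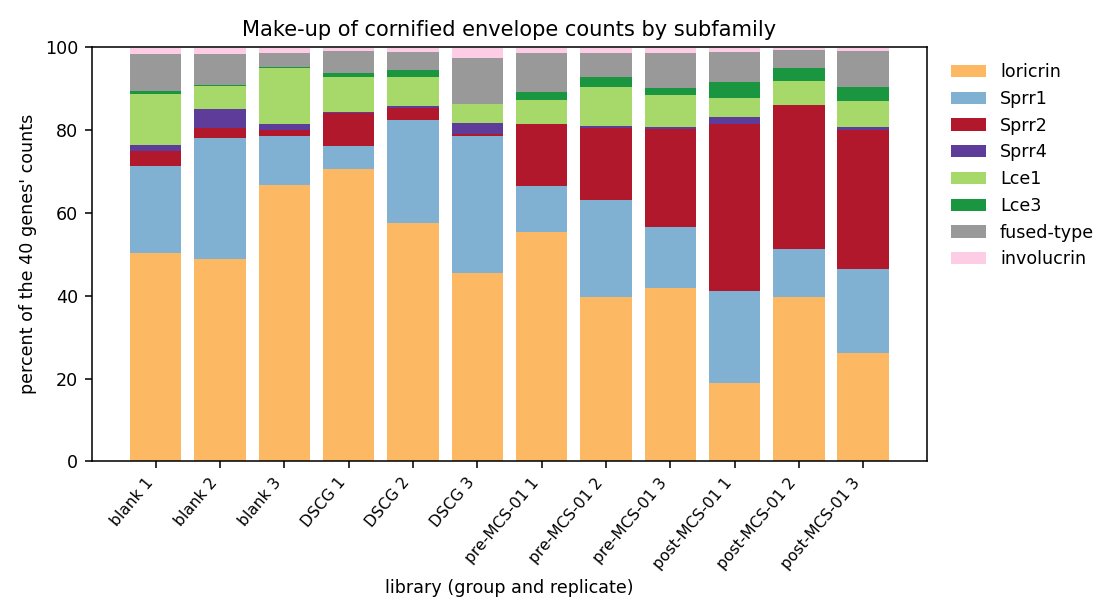
Percent of the counts of the 40 cornified envelope genes taken by each subfamily (stacked bars) in the 12 libraries. Sprr2 (dark red) takes 1.37% to 3.84% in blank, 14.8% to 23.6% in pre-MCS-01 and 33.5% to 40.3% in post-MCS-01, and loricrin (orange) is the largest share in all blank, DSCG and pre-MCS-01 libraries.

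Components of normal epidermal differentiation did not share this pattern. Loricrin stood at 4139, 3167 and 12544 CPM in blank, 6940, 4778 and 4214 CPM in pre-MCS-01, and 1243, 5928 and 1178 CPM in post-MCS-01. In DSCG it stood at 13057, 7435 and 2632 CPM, so all groups overlapped. Its log2 fold change from blank was -0.32 ± 0.75 in pre-MCS-01 and -1.25 ± 0.76 in post-MCS-01 (edgeR adjusted p = 0.927 and 0.686). The suprabasal keratins Krt1 and Krt10, which accompany loricrin in differentiation, were also highest in DSCG 1 (19442 and 19518 CPM), as was Krt78 (181 CPM). The other suprabasal keratins listed were not. Krt2 was lowest there (0.15 CPM), Krt77 stood at 82.0 CPM against 25.8 to 2384 CPM elsewhere, and Krt80 at 313 against 213 to 686 CPM.

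Involucrin was lowest in post-MCS-01. It stood at 66.8, 77.2 and 33.9 CPM there, against 125, 103 and 232 CPM in blank, 168, 140 and 115 CPM in pre-MCS-01 and 139, 128 and 141 CPM in DSCG. The post-MCS-01 libraries did not overlap with any other group. The log2 fold change of post-MCS-01 was -1.37 ± 0.35 from blank, -1.25 ± 0.35 from pre-MCS-01 and -1.20 ± 0.34 from DSCG. The edgeR adjusted p was 0.162, 0.183 and 0.166, and with DESeq2 the differences from blank and from DSCG passed (adjusted p = 0.0168 and 0.0428). DESeq2 called 2 of 39 genes against DSCG, Crnn and Ivl, and 2.99% of all genes.

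The 14 Lce1 genes varied widely between libraries, also within groups, and edgeR called none of them. Each gene had a negative log2 fold change in post-MCS-01 against blank, pre-MCS-01 and DSCG. All 14 were highest in blank 3, the shallow library and 1 of the 3 libraries short of long transcripts. Of the 14, 11 were lowest in DSCG 3. Lce1a2, the most abundant of them per length, stood at 139, 50.2 and 336 CPM in blank, 106, 169 and 117 CPM in pre-MCS-01, and 43.7, 123 and 38.1 CPM in post-MCS-01. In DSCG it stood at 235, 123 and 38.2 CPM. Over the 14 genes the median log2 fold change from blank was -0.34 in pre-MCS-01 and -1.18 in post-MCS-01, and without blank 3 these values were 0.47 and -0.34. The direction in pre-MCS-01 therefore turned with that library. Lce1m, which lies apart from the other Lce1 genes beyond the Lce3 run, stood at 113, 63.6 and 456 CPM in blank and 13.9, 57.8 and 19.9 CPM in post-MCS-01, without overlap. Its log2 fold change was -2.78 ± 0.80 (edgeR adjusted p = 0.241). Lce6a stood at 5.63 to 36.4 CPM in blank and 3.83 to 12.7 CPM in post-MCS-01, with overlap.

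Sprr4 was lower in the MCS-01 libraries than in blank, opposite to the Sprr2 genes. It stood at 118, 295 and 309 CPM in blank, 16.6, 56.7 and 52.6 CPM in pre-MCS-01, and 114, 14.5 and 30.2 CPM in post-MCS-01. In DSCG it stood at 27.4, 72.8 and 147 CPM. All 6 MCS-01 libraries were below the lowest blank library, though post-MCS-01 1 only narrowly. The log2 fold change from blank was -2.52 ± 0.82 in pre-MCS-01 and -2.19 ± 0.81 in post-MCS-01 (edgeR adjusted p = 0.617 and 0.395).

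**Figure D4:**
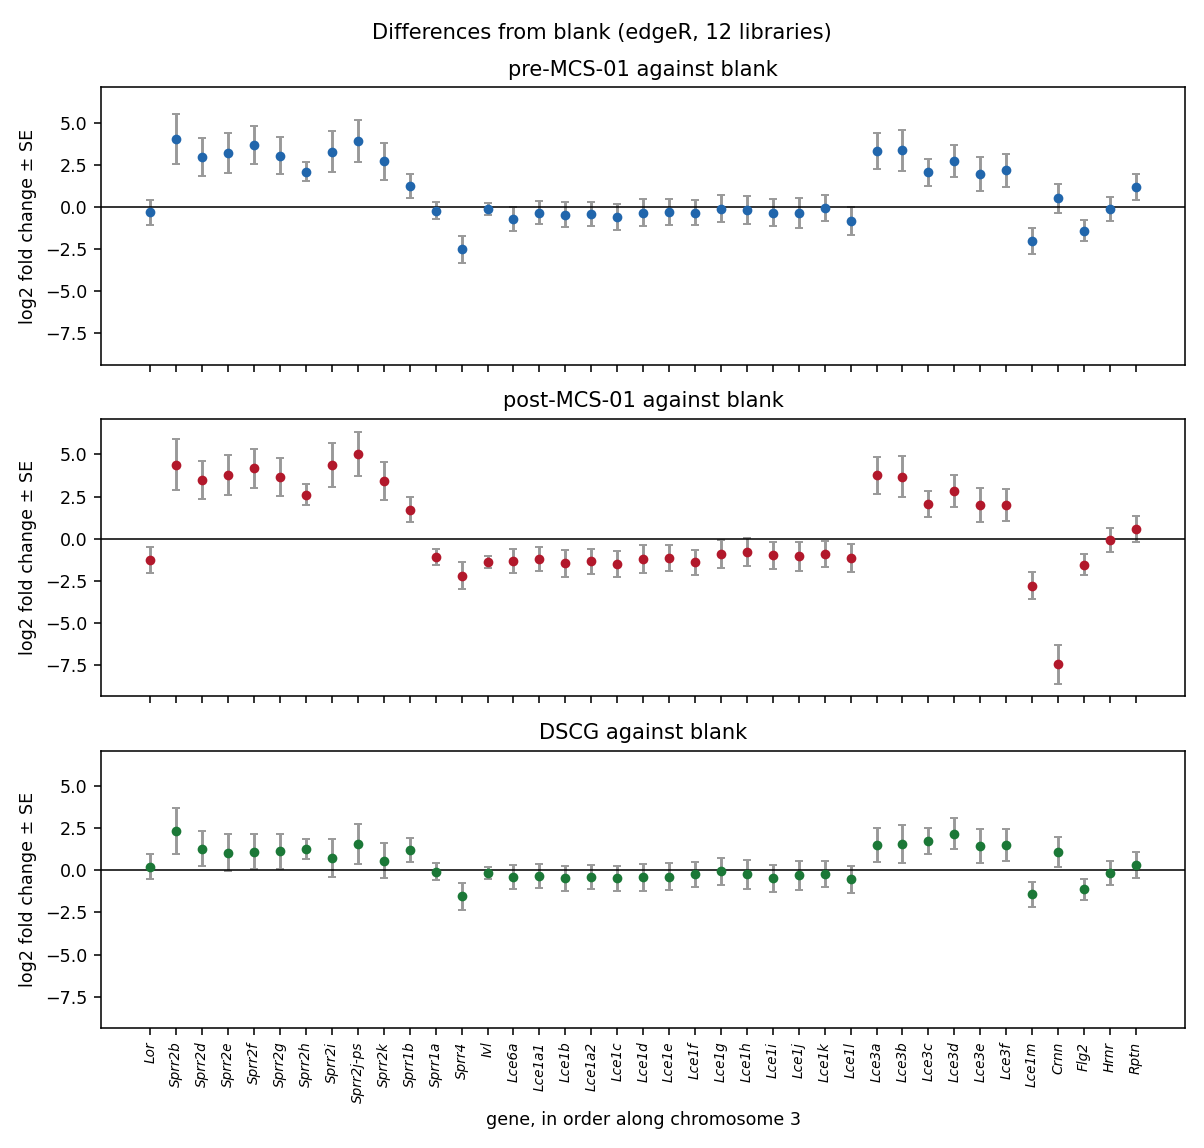
Log2 fold change from blank (points) with its standard error (bars) for the 39 tested genes in order along chromosome 3, for pre-MCS-01, post-MCS-01 and DSCG, from the edgeR fit of all 12 libraries. The runs from Sprr2b to Sprr1b and from Lce3a to Lce3f lie above 0 in all 3 panels and highest in post-MCS-01 or pre-MCS-01, the Lce1 genes lie near or below 0, and Crnn in post-MCS-01 lies at -7.45.

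Of the fused-type genes, Crnn alone passed a test. Crnn encodes cornulin, a marker of late differentiation in squamous epithelium. It stood at 1.18, 0.36 and 0.60 CPM in post-MCS-01, from 47, 15 and 26 counts. In the other groups it stood at 226, 70.6 and 78.3 CPM in blank, 110, 321 and 104 CPM in pre-MCS-01, and 20.6, 328 and 451 CPM in DSCG. The highest post-MCS-01 library was thus far below the lowest of the other 9. Against pre-MCS-01 the level fell by 7.96 ± 1.18 on the log2 scale (adjusted p = 0.0313), and against DSCG it fell by 8.54 ± 1.21 (adjusted p = 0.0288), both with edgeR. Against blank the log2 fold change was -7.45 ± 1.16 with edgeR adjusted p = 0.0692, which missed the threshold. Crnn was 1 of 39 genes called in each of the first 2 comparisons, where 0.824% and 1.06% of all genes tested were called (0.805% and 0.916% as lower). Both calls were lost with limma-voom (adjusted p = 0.199 and 0.146) and when blank 3, DSCG 3 or a single post-MCS-01 library, whichever of the 3, was left out. The call against pre-MCS-01 was also lost without pre-MCS-01 2, and the call against DSCG without DSCG 2 or in a fit of those 2 groups alone. In all these settings few or no genes of any kind were called. Of all genes tested, limma-voom called 1 against pre-MCS-01 and 2 against DSCG, and the fit without DSCG 3 called 4 and 0. The other settings with a lost call gave 0, against 134 and 172 in the edgeR fit of 12 libraries. The fold change stayed between -8.48 and -7.21 against pre-MCS-01 and between -9.09 and -7.79 against DSCG under every setting run.

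Crnn moved with the hair follicle genes. The 12 genes of a hair follicle list summed to 42.3 to 102 CPM in post-MCS-01 and to 1991 to 41229 CPM in the other 9 libraries. Of these 12 genes, 10 were called lower in the comparison of post-MCS-01 with pre-MCS-01, and 12 in that with DSCG. The ratio of Crnn to Tchh counts, where Tchh encodes trichohyalin of the inner root sheath and is itself a fused-type gene next to this region, stayed between 0.0133 and 0.0604 in all 12 libraries, while Crnn itself spanned 1252-fold. DSCG 1, the lowest of the other 9 libraries in Crnn, was also the lowest of them in Tchh, at 630 CPM. The part of hair follicle content in the Crnn level was not tested. Prr9, a proline-rich gene between the outermost of the 40, and Padi1, a peptidylarginine deiminase, were called lower in the same 2 comparisons. The adjusted p was 0.0339 and 0.0323 for Prr9 and 0.0360 and 0.0323 for Padi1 (edgeR).

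**Figure D5:**
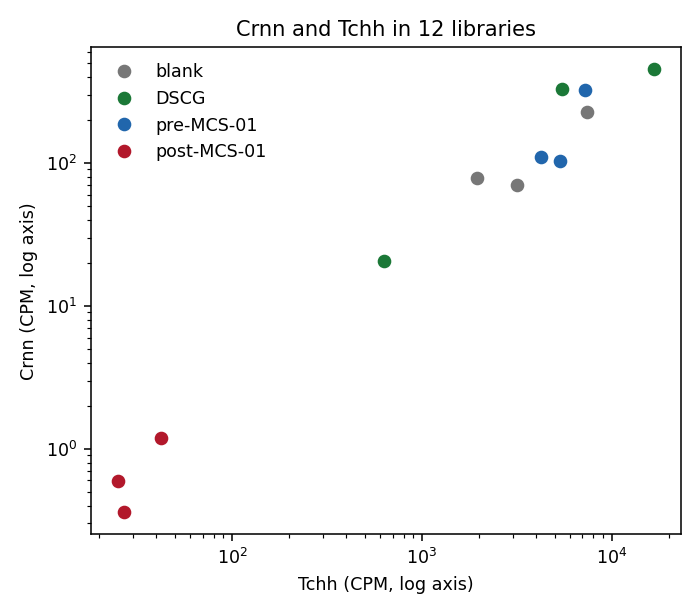
Crnn level against Tchh level (both in CPM, log axes) in the 12 libraries, coloured by group. The 3 post-MCS-01 libraries sit at the lower left, at 0.36 to 1.18 CPM of Crnn, DSCG 1 lies between them and the rest, and the 12 points lie along a single band.

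The other 3 fused-type genes were not called. Rptn, which encodes repetin, stood at 334, 232 and 198 CPM in blank, 885, 245 and 623 CPM in pre-MCS-01, and 405, 393 and 320 CPM in post-MCS-01. In DSCG it stood at 761, 152 and 43.6 CPM, again lowest in DSCG 3. Flg2, which encodes a filaggrin-like protein, stood at 84.2, 138 and 180 CPM in blank, and at 20.4, 60.7 and 70.0 CPM in pre-MCS-01, without overlap. In post-MCS-01 it stood at 27.4, 85.1 and 25.2 CPM and in DSCG at 37.0, 39.7 and 107 CPM. Its log2 fold change in pre-MCS-01 against blank was -1.41 ± 0.61 (edgeR adjusted p = 0.680). Hrnr, which encodes hornerin, stood at 44.9 to 172 CPM in blank and within 45.9 to 189 CPM in the other groups.

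The comparisons with DSCG rested on a heterogeneous group. In DSCG against blank, 0 of 39 genes lay without overlap in either direction, where 1.91% and 1.77% of all genes tested lay higher and lower. edgeR called 0 of 39, and 3 genes (Lce3d, Lce3c and Sprr2h) had an unadjusted p under 0.05, as did 167 of all genes tested. For Sprr2 the median log2 fold change was 1.13 in the edgeR fit, while the difference of mean log2 CPM was -0.42, and without DSCG 1 the median was -0.26. DSCG 1 lay within the range of the MCS-01 libraries in Sprr2b, Sprr2d and Sprr2h, and DSCG 3 lay below blank in all 9. In 8 genes all 6 MCS-01 libraries lay above all 6 DSCG and blank libraries, against 0.553% of all genes tested. These were Sprr2e, Sprr2f, Sprr2g, Sprr2i, Sprr2j-ps, Sprr2k, Lce3a and Lce3b.

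In pairs with DSCG, 10 of 39 genes were higher without overlap in pre-MCS-01 (2.53% of all genes tested) and 8 in post-MCS-01 (7.14%), and 0 (2.59%) and 3 (8.28%) were lower. Without DSCG 1 the edgeR fit called 2 genes against DSCG in post-MCS-01, Crnn and Sprr2b (3.67% of all genes tested). Against DSCG the median log2 fold change of Sprr2 was 2.15 in pre-MCS-01 and 2.75 in post-MCS-01. Without DSCG 1 these medians were 3.46 and 4.06, with limma-voom 4.08 and 4.43, and without DSCG 3 they were 1.51 and 2.15. The smallest edgeR adjusted p among the Sprr2 genes there was that of Sprr2j-ps in post-MCS-01, 0.248 from 63.7 ± 52.9 CPM against 5.62 ± 5.89 CPM (SD, n = 3). At an unadjusted p under 0.05 edgeR gave 10 of 39 genes in post-MCS-01 (1846 of 16267 genes) and 1, Sprr2f, in pre-MCS-01 (384 genes). These comparisons share the DSCG libraries, and those against blank share the blank libraries, so their values are not independent of each other.

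Between post-MCS-01 and pre-MCS-01 the blocks did not separate. No gene was higher in post-MCS-01 without overlap, where 7.01% of all genes tested were, and 3 were lower (Crnn, Ivl and 1 Lce1 gene, Lce1f), where 10.7% were. Median log2 fold changes were 0.59 for Sprr2 and 0.08 for Lce3, and without post-MCS-01 2 they were 0.03 and -0.23. Without pre-MCS-01 3 the Lce3 median was -0.13. For Lce1 it was -0.83, with a range of -1.50 to -0.53 over the settings run, and no Lce1 gene was called. The joint edgeR test of the 4 groups called 0 of 39 and 0% of all genes tested, and the smallest adjusted p was 0.166 for Crnn and 0.277 for Sprr2h. DESeq2 called 5 in the joint test (2.7% of all genes), and edgeR without DSCG 1 called 2 (1.65%).

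Other genes of envelope assembly were read from fixed lists. Of 15 crosslinking and processing enzymes tested, Padi1 was the only one called, lower in post-MCS-01 as above. Tgm1, the membrane-bound transglutaminase that attaches the envelope, stood at 149 to 244 CPM in blank, 375 to 448 in pre-MCS-01, 254 to 832 in post-MCS-01 and 193 to 351 in DSCG. All MCS-01 libraries were above blank, and its log2 fold change was 1.11 ± 0.39 and 1.34 ± 0.39 (edgeR adjusted p = 0.658 and 0.249). None of 15 scaffold and corneodesmosome genes, 15 barrier lipid genes, 16 regulators of differentiation or 6 suprabasal keratins was called in any of the 6 comparisons. Examples from these lists are cornifelin (Cnfn), a scaffold gene at 178 to 464 CPM in blank and 393 to 1087 CPM in the MCS-01 libraries, and Grhl3, a regulator at 53.2 to 62.4 CPM in blank and 80.7 to 267 CPM in the MCS-01 libraries. Cers3, the ceramide synthase of the skin barrier, stood at 35.7 to 60.3 CPM in blank and 59.8 to 159 CPM in the MCS-01 libraries. The ranges of Cnfn and Cers3 overlapped. Other listed genes were lower. The regulator Vdr stood at 124 to 200 CPM in blank and 82.7 to 109 CPM in post-MCS-01. Cst6, on the crosslinking list, stood at 1841 to 5565 CPM in blank and 632 to 2640 CPM with MCS-01, with overlap. In post-MCS-01 against blank, 9 of 15 crosslinking, 4 of 15 scaffold, 2 of 15 lipid and 6 of 16 regulator genes had a negative log2 fold change. List medians of the log2 fold change from blank in pre-MCS-01 and post-MCS-01 were 0.44 and -0.15 for the crosslinking list, 0.29 and 0.22 for the scaffold list, 0.43 and 0.42 for the lipid list, 0.25 and 0.10 for the regulators, and -0.05 and -0.37 for the suprabasal keratins. The wound-activated keratins had medians of 0.93 and 1.19 and no call.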

How the data were processed

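Per the labels' protocols, total RNA was made into TruSeq libraries, with no strand setting given. The deposited files hold raw counts per gene symbol. The authors' tools, per the submitters' processing notes, include HTSeq, TopHat2, Bowtie2, FastQC and limma, and the build is mm10. Versions and settings are not given in the sources used here. The 5 summary lines of each file stayed out of library sizes. Genes were kept by filterByExpr (16267), scaled by TMM (factors 0.905 to 1.07) and tested in R 4.3.3 with edgeR 4.0.16 (quasi-likelihood, two-sided) in 1 model of 12 libraries with group means as coefficients. Benjamini-Hochberg adjustment ran over all genes tested, and the biological coefficient of variation was 0.347. Steps were tested on simulated data. Alternatives used DESeq2 1.42.0 and limma 3.58.1 (voom), other scalings, no filter, fits of 2 groups and left-out libraries. Non-overlap counts compare CPM, and their alternatives were added after seeing the data. Positions and exon lengths come from GENCODE M21, matched by symbol (98.2% of genes). Replicate numbers follow the order of the records, and p-values measure the spread between mice. Named genes are the fixed components, the most abundant gene of each subfamily, genes called, and the smallest p values per comparison. Further names (such as Sprr2i and Sprr2b) were chosen with their values known, as were the members and lists, which rest on earlier results of these data.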

Additional observations from a re-analysis of the deposited data

How the results depend on the processing

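The counts of cornified envelope genes called depended on the fit. For pre-MCS-01 against blank the fit of the 2 groups alone called 1 gene (Sprr2b) and all other settings 0. For post-MCS-01 against blank the count was 0 in the edgeR fit, 1 with no filter on low counts (Crnn), 9 with DESeq2 (6 higher and 3 lower) and 11 in the fit of the 2 groups alone (10 higher and 1 lower), where 1.61% of all genes were called. Leaving out 1 library gave 0 to 9, with 9 without DSCG replicate 3 (8 of them higher) and 2 without DSCG replicate 1. For post-MCS-01 against pre-MCS-01 the count of 1 became 0 with limma-voom and 0 when the 3 libraries with few long transcripts were left out, and ranged from 0 to 1 with 1 library left out. For post-MCS-01 against DSCG it became 2 with DESeq2 (Crnn and Ivl), 0 with limma-voom, 0 in the fit of the 2 groups alone and 0 without those 3 libraries, and ranged from 0 to 2 with 1 library left out. Of all genes tested, limma-voom called 1 against pre-MCS-01 and 2 against DSCG, and the fit without those 3 libraries called 0 in both comparisons. For the joint test the count of cornified envelope genes became 5 with DESeq2 and ranged from 0 to 2. The other comparisons stayed at 0 in every setting run, and the cause of these changes was not tested. The count of 16 genes with all MCS-01 libraries above blank was 16 with total-count scaling and without these 3, and 16 to 17 with 1 library left out, and the same 16 genes were included each time. Among single genes, Sprr2b in DSCG against blank (2.34) turned to -1.02 with limma-voom and ranged from -2.33 (without DSCG replicate 1) to 2.95 with 1 library left out, and Lce3a to -0.15 with limma-voom. The remaining settings of single genes were the same in 1092 cases, passed the threshold in 28 and no longer passed in 17. No paired analysis was possible because every library comes from a different mouse and the labels give no number that links the groups. With 3.84e+06 counts in blank 3, genes at a few CPM rest on few counts there, such as 7 for Sprr2j-ps.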
